A study of Mus musculus with 16 samples.

Results

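The genes expressed in polychromatic erythroblasts (Poly-E) were compared between Ypel4-/- and Ypel4+/+ mice, gene group by gene group, to describe small shifts shared by genes of a function or an expression class and to bound the size of any effect on single genes. The comparison used 8 of the 16 libraries of the study, 4 from each genotype, and the other 8 came from orthochromatic erythroblasts (Ortho-E), the next stage of maturation. Mice of both genotypes came from a line on C57BL/6N-A<tm1Brd>, whose Ypel4 allele is named tm1a(EUCOMM)Wtsi (line WtsiIeg). The cells were sorted from bone marrow at steady state by CD44 and Ter119 after propidium iodide-positive cells were left out. The mutant allele is a gene trap placed before the coding exons, carried in every cell of the animal, so an effect on erythroblasts cannot be told apart from an effect of other Ypel4-deficient tissues. The age of the mice is not given in the sources used here. Of 46078 genes counted, 12395 reached a sum of 10 counts across the 8 libraries and were tested. They included 1193 distinct genes from 39 lists of functions, from globins to lysosome enzymes.

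YPEL4 belongs to the yippee-like family, small and highly conserved zinc-binding proteins of largely unknown biochemical function. Another family member, YPEL5, is a subunit of the CTLH ubiquitin ligase, a large complex that takes part in erythroid maturation. Poly-E cells are in the last divisions of erythropoiesis. They fill their cytoplasm with hemoglobin, still translate actively, and begin to shut down transcription and to shed organelles before the nucleus is expelled at the orthochromatic stage. Protein synthesis, mitochondrial, cell cycle and membrane genes were therefore listed beside the globin and heme genes.

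The Ypel4+/+ libraries held 3843335, 3348608, 10076589 and 7383540 counts and the Ypel4-/- libraries 3995941, 3235398, 4666543 and 12451234. Values are given as CPM, read pairs relative to the library total in the usual per-million unit, scaled with TMM factors and not divided by gene length, so they compare libraries and not genes. The genotype labels were checked with Ypel4 (ENSMUSG00000034059, chromosome 2, 84734058 to 84738655 of GRCm38, + strand), at 1098, 761, 915 and 777 CPM in the Ypel4+/+ and 15.5, 23.4, 36.2 and 22.4 CPM in the Ypel4-/- libraries. Its log2 fold change (Ypel4-/- over Ypel4+/+ throughout) was −5.18 with a standard error of 0.21 (adjusted p = 1.6e-06, edgeR quasi-likelihood test with Benjamini-Hochberg adjustment), and its adjusted p was 0.28 with replicate number as a block. The erythroid markers Hbb-bs, Alas2, Gata1 and Slc4a1 were abundant in all 8 libraries, and Cd44, which falls during maturation, lay between 2.78 and 7.06 CPM. The libraries did not vary only with genotype. Replicates 1 and 2 of both genotypes stood apart from replicates 3 and 4, for example in the ribosomal protein gene Rps20, at 237 to 376 CPM in the former and 105 to 141 CPM in the latter. Ypel4+/+ replicate 1 also stood apart in late erythroid and interferon-stimulated genes, and the lists that it moved most are also given without it.

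Apart from Ypel4, no gene passed the test: 1 of 12395 genes, 0.00807%, was called at an adjusted p of 0.05 or less. An unadjusted p under 0.05 was given to 271 genes, 2.19%. With the replicate number as a block 4 genes were called, 0.0323%, and 408 genes, 3.29%, had an unadjusted p under 0.05. The 4 genes were En2, whose sequence is part of the trap cassette, Clp1, which lies beside Ypel4 and takes part in RNA processing, the histone gene Hist1h2bg, and Usp26. Usp26 was at 16.5 CPM in Ypel4+/+ replicate 1 and at 0 in the other 7 libraries. With a term for replicates 1 and 2 against 3 and 4 in place of the block, neither Usp26 nor Hist1h2bg was called. Of the 1193 genes on a function list, edgeR, DESeq2 and limma voom each called 0, with 22, 16 and 12 genes at an unadjusted p under 0.05. The fit with the block called 1, Hist1h2bg, and gave 85 of them an unadjusted p under 0.05.

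A gene that is not called may still differ, so the size of a difference was bounded with a pair of one-sided tests against a fixed fold, adjusted over all genes. By this test 7704 genes, 62.2%, differed by less than 2-fold in either direction, and 5176 genes, 41.8%, by less than 1.5-fold. For a tighter limit, 0.32 to either side on the log2 scale, no gene could be bounded by edgeR, DESeq2 or limma voom. With the replicate block 2609 genes, 21%, could be. That block rests on a match by replicate number that was not established, and the fit with it did not call Ypel4. The bound depended on abundance. Among the 3154 genes under 1 CPM 0.0951% were bounded within 2-fold, and among the 3639 genes of 1 to 10 CPM 59.7% were. Among the 3705 genes of 10 to 100 CPM 98.7% were bounded within 2-fold and 84.5% within 1.5-fold. The 1764 genes of 100 to 1000 CPM reached 98.9% and 93.7%, and the 133 genes of 1000 CPM or more reached 96.2% and 89.5%. The 95% interval of the log2 fold change reached a median of 1.76 to either side under 1 CPM, 0.71 between 1 and 10 CPM, 0.31 between 10 and 100 CPM and 0.23 at 1000 CPM or more. Below 1 CPM a difference of 2-fold could thus mostly not be told from 0 at this depth. Of the list genes, 87.3% were bounded within 2-fold and 67.3% within 1.5-fold.

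**Figure D1:**
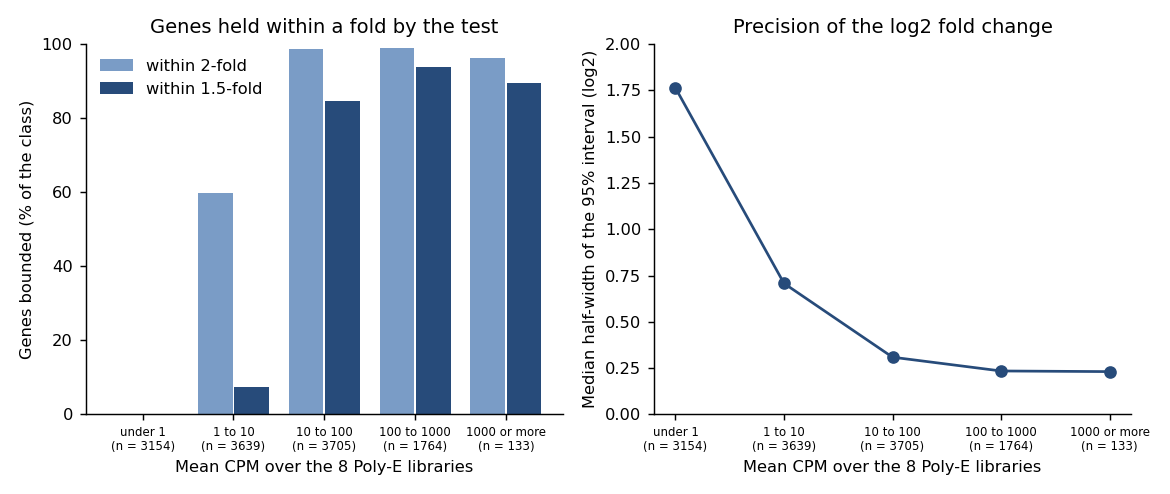
Left, percent of the genes in each abundance class (mean CPM over the 8 Poly-E libraries) that the test bounded within 2-fold (light bars) or 1.5-fold (dark bars); right, median half-width of the 95% interval of the log2 fold change in the same classes. Genes above 10 CPM were nearly all held within 2-fold, and genes under 1 CPM nearly never.

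Genes that define the red cell were measured precisely, and their intervals were narrow. Slc4a1, which encodes band 3, the anion exchanger of the red cell membrane, was at 26121, 23085, 25823 and 24448 CPM in the Ypel4+/+ and at 21560, 23683, 23825 and 24785 CPM in the Ypel4-/- libraries. These values overlapped, and the fold lay between 0.82 and 1.08 by its 95% interval. Gata1, the master transcription factor of the lineage, was at 445 ± 14.0 and 433 ± 24.6 CPM (mean ± SD, n = 4 each, Ypel4+/+ before Ypel4-/-), with an interval from 0.85 to 1.12-fold. Klf1, which activates globin and membrane genes, was at 799 ± 50.1 and 757 ± 62.4 CPM (SD, n = 4), with an interval from 0.82 to 1.10-fold. Tfrc, the transferrin receptor that takes up iron, was at 4983 ± 229 and 4636 ± 229 CPM (SD, n = 4), with an interval from 0.81 to 1.07-fold. The interval of Alas2, the first and rate-limiting enzyme of erythroid heme synthesis, ran from 0.77 to 1.11-fold, that of the α-globin gene Hba-a1 from 0.84 to 1.13-fold and that of the β-globin gene Hbb-bs from 0.81 to 1.10-fold. Each of these 7 genes was bounded within 1.5-fold. Hba-a1 has a near-identical copy, and reads that map to both were not counted, so its level is uncertain.

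The same held for the lists these genes stand for. Of 18 heme synthesis genes 17 were bounded within 2-fold and 16 within 1.5-fold, with a median log2 fold change of −0.05. All 15 genes of the membrane skeleton, the spectrin and ankyrin network under the membrane, were bounded within 2-fold, with a median of −0.07 and 2 above 0. Of 22 genes of the band 3 complex, blood groups and transporters 21 were bounded within 2-fold, with a median of −0.06 and 6 above 0. The exception was Art4, the Dombrock blood group gene, at 349, 283, 150 and 141 CPM in the Ypel4+/+ and 205, 272, 163 and 141 CPM in the Ypel4-/- libraries, where replicates 1 and 2 of both genotypes were higher than 3 and 4. Of 28 erythroid transcription factors 27 were bounded within 2-fold, with a median of −0.05, and of 16 iron genes 15 were, with a median of 0.00. The globin list was bounded less often, in 5 of the 10 genes tested, and Hbb-b1, Hbb-b2 and Ahsp were not analysed here. Of the 12 tested genes of the CTLH ubiquitin ligase 11 were bounded within 2-fold, with a median of −0.06 and 3 above 0. Without Ypel4+/+ replicate 1 the median of the CTLH list was −0.01 with 5 above 0, and that of the heme synthesis list −0.02 with 7 above 0. The membrane skeleton list was then at −0.045 with 5 above 0 and the band 3 list at −0.041 with 9 above 0. The erythroid transcription factors were at −0.064 with 6 above 0. Across all genes tested the median was 0.00 and 50.2% were above 0. Abundant genes in general were lower: the median was −0.05 with 27.6% above 0 at 100 to 1000 CPM. At 1000 CPM or more it was −0.08 with 8.27% above 0. Genes of low abundance were higher, with a median of 0.06 and 57.6% above 0 at 1 to 10 CPM. Under 1 CPM the median was 0.09 with 55.5% above 0. The part of abundance in the list medians was not tested.

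Shifts of whole lists were smaller than the bound on most single genes. Of the 39 lists, 34 had a median log2 fold change between −0.1 and 0.1, and in 5 lists every tested member was bounded within 2-fold: S phase genes (48), G2 and mitosis genes (46), aminoacyl-tRNA synthetases (23), the membrane skeleton (15) and mitochondrially encoded proteins (7). The highest medians were those of the mitochondrially encoded proteins, 0.38, the cytosolic ribosomal proteins, 0.17, and the clustered histone genes, 0.11. The lowest were those of the interferon-stimulated genes, −0.27, the late erythroid genes, −0.11, and the G2 and mitosis genes, −0.07. No set test was made. A list is described in each library by its median deviation, the median over its members of the log2 CPM minus the gene's own mean over the 8 libraries. By this measure the Ypel4-/- and Ypel4+/+ libraries overlapped in all 39 lists. A second measure was the pair difference, the median over the members of the log2 CPM of the Ypel4-/- library minus that of the Ypel4+/+ library with the same replicate number. It was above 0 in all 4 numbers for 6 lists, the cytosolic ribosomal proteins, mitochondrially encoded proteins, mitochondrial ribosome, citric acid cycle, nuclear-encoded respiratory chain and aminoacyl-tRNA synthetases, and in none for the SR proteins and hnRNPs and for the p53 targets, whose pair difference in number 1 was 0.00. Some of the values above 0 were close to it. The respiratory chain was at 0.000055 in number 3, with 39 of 77 genes above 0. The aminoacyl-tRNA synthetases were at 0.006 in number 2, with 12 of 23 above 0. How many lists would be above 0 in all 4 numbers by chance was not tested. The pair differences rest on a match by number that was not established inside replicates 1 and 2 or inside 3 and 4. The 2 measures can differ in sign, as for the p53 targets, whose median deviation in replicate 1 was −0.24 in Ypel4+/+ and −0.07 in Ypel4-/-. Over all genes the pair differences were 0.033, 0.013, −0.00014 and 0.00059.

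**Figure D2:**
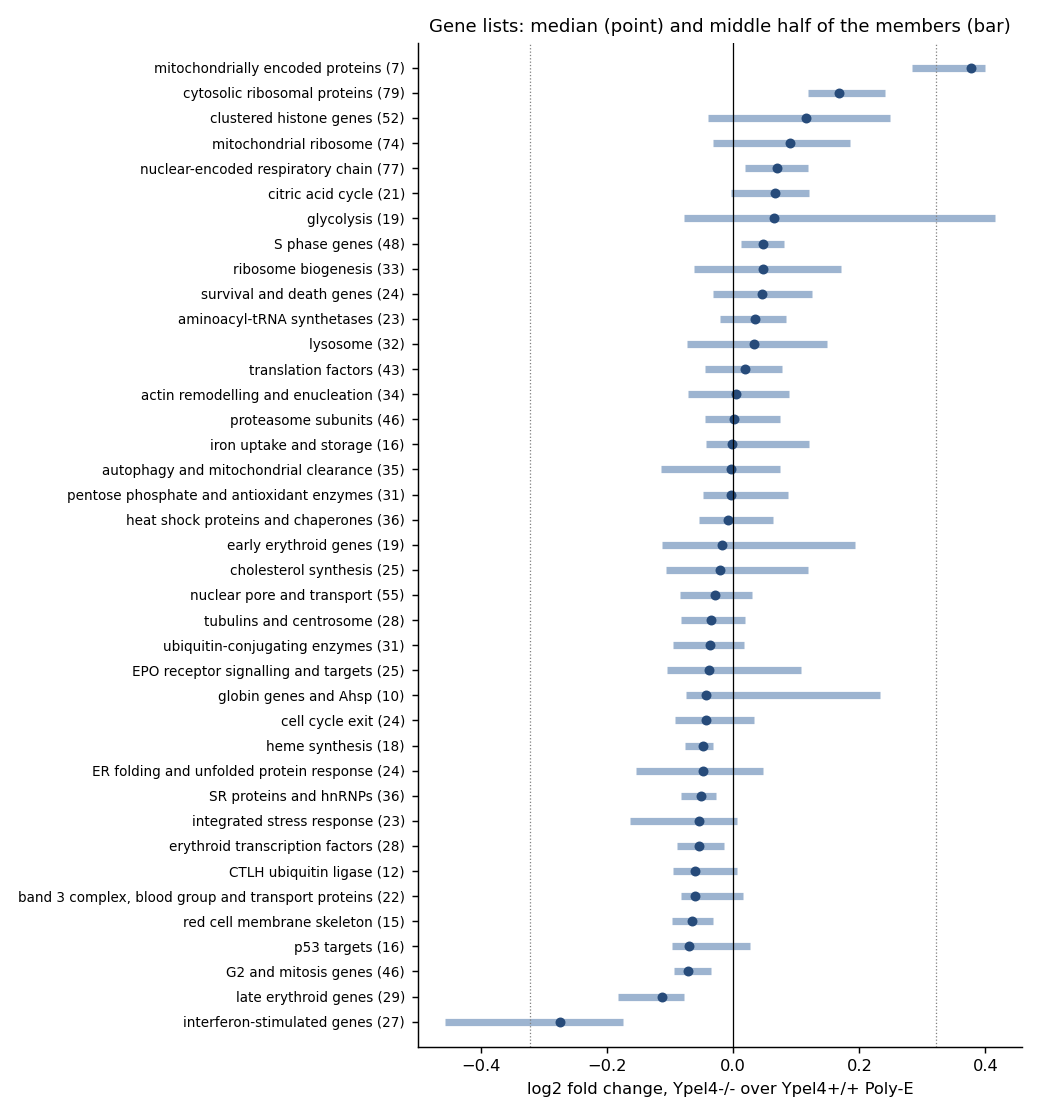
Median (point) and interquartile range (bar) of the log2 fold change, Ypel4-/- over Ypel4+/+ Poly-E, of the tested members of each of 39 gene lists, with the number of members in brackets; dotted lines mark 0.32 to either side of 0. Most medians sit near 0, and the mitochondrially encoded proteins at 0.38 and the interferon-stimulated genes at −0.27 lie at the ends.

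**Figure D3:**
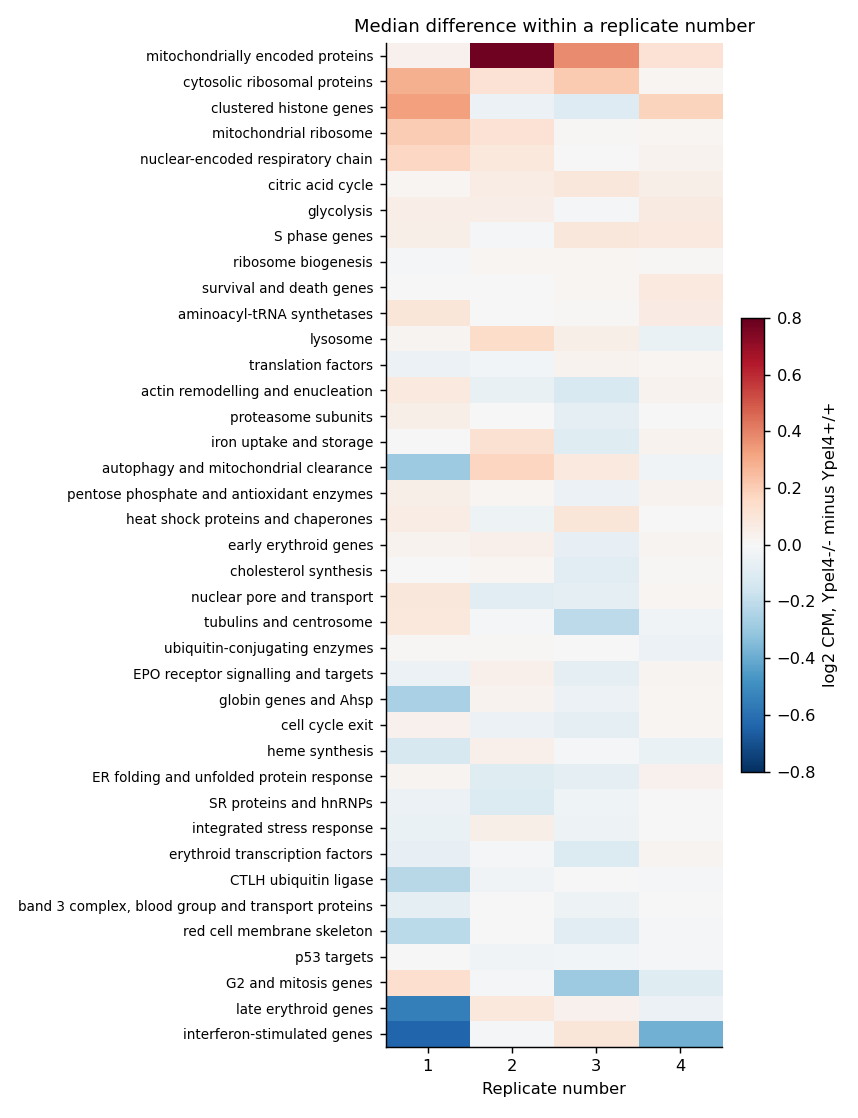
Median difference in log2 CPM between the Ypel4-/- and the Ypel4+/+ library of the same replicate number, for each of the 39 lists, on a colour scale from −0.8 (blue) to 0.8 (red). The cytosolic ribosomal proteins are above 0 in all 4 columns, while the interferon-stimulated and late erythroid genes are lowest in replicate number 1.

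Genes for the cytosolic ribosome were, as a list, slightly higher in Ypel4-/- Poly-E. Their mRNAs are a class of their own, since most begin with a run of pyrimidines, the 5′ terminal oligopyrimidine tract, through which growth signals control their translation. Runs of pyrimidines near the annotated start are shown for 4 members, picked among those with such a run. They were read from RefSeq's promoter windows on GRCm38.p6 around the annotated start, and capitals mark the run: a C followed by at least 5 C or T, beginning within 10 bases of the start, on the gene's strand.
Rps24, chr14:24490668-24490688, + strand: gctggggtCCTTCCTTgcgcg
Rplp2, chr7:141447641-141447661, + strand: cagcgtCTTCCTTTCgccgcc
Rps15a, chr7:118116137-118116157, − strand: tttctgccatCTTCCCTCgcc
Rpl13a, chr7:45128735-45128755, − strand: cctgcgacaagaCCTCCTCCT
Promoters were matched for 58 of the 79 tested ribosomal protein genes, and 30 of their 68 promoters, 44.1%, held such a run, against 15.8% of all 32851 promoters. On the opposite strand the same search found 4 of 68, 5.88%, against 17.5% of all. Of the 4 runs shown, only that of Rps15a begins at the annotated start itself. The match describes these letters only.

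Of the 79 ribosomal protein genes 77 had a log2 fold change above 0, with a median of 0.17 and an interquartile range from 0.12 to 0.24. None was called by edgeR, and 2 had an unadjusted p under 0.05. With the replicate block 0 were called, 38 of 79 had an unadjusted p under 0.05, all 38 higher in Ypel4-/-, and the median was 0.16. That block pairs libraries by a match taken from these same data, and the fit with it did not call Ypel4. The match was not established inside replicates 1 and 2 or inside 3 and 4. The list also varied as a whole between libraries, so the 38 genes are not independent readings. The differences were small for each gene. Rps18, of the small subunit, was at 90.9, 132, 124.6 and 108 CPM in the Ypel4+/+ and at 124, 145, 178 and 124 CPM in the Ypel4-/- libraries, with a log2 fold change of 0.32 (unadjusted p = 0.029). These groups overlapped, and each Ypel4-/- library was above the Ypel4+/+ library of its number. Rpl18, of the large subunit, was at 113, 127, 122 and 108 CPM in Ypel4+/+ and at 170, 159, 131 and 112 CPM in Ypel4-/-, a log2 fold change of 0.28 (unadjusted p = 0.039). Rplp0, the stalk protein and the most abundant member by CPM, was at 961, 1151, 722 and 672 CPM in Ypel4+/+ and at 1109, 1151, 875 and 671 CPM in Ypel4-/-, a log2 fold change of 0.12 with a 95% interval from −0.33 to 0.57. Its levels differed more between replicate numbers than between genotypes. Rps20 had the highest log2 fold change of the list, 0.43, at 237, 260, 128 and 105 CPM in Ypel4+/+ and 376, 349, 141 and 114 CPM in Ypel4-/-. Its interval, from −0.84 to 1.69, was wide because replicates 1 and 2 of both genotypes lay above replicates 3 and 4. Rpl38 was the lowest, at −0.01. By the main test 71 of the 79 genes were bounded within 2-fold and 47 within 1.5-fold.

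In the libraries, the median deviation of the ribosomal protein genes was 0.00, 0.15, −0.17 and −0.32 in Ypel4+/+ replicates 1 to 4 and 0.29, 0.25, 0.04 and −0.27 in Ypel4-/-. The spread between replicates of 1 genotype thus exceeded the difference between genotypes. Within replicate numbers 1 to 4 the difference was 0.29, 0.12, 0.21 and 0.02, with 77, 69, 73 and 49 of the 79 genes above 0. Together these genes took 1.79, 2.07, 1.61 and 1.48% of the counts in Ypel4+/+ and 2.45, 2.27, 1.90 and 1.52% in Ypel4-/-. The median was 0.20 over replicates 1 and 2 alone and 0.11 over replicates 3 and 4 alone. It lay between 0.09 and 0.28 when 1 library was left out, lowest without Ypel4-/- replicate 1 (0.09) or Ypel4+/+ replicate 4 (0.09) and highest without Ypel4-/- replicate 4. In Ortho-E the same list had a median of −0.15 with 12 of 79 genes above 0. Ribosomal protein genes have many processed pseudogenes, and reads that map to several places were not counted, so the levels of single members are uncertain. Among related lists, 43 translation factors had a median of 0.02, 33 ribosome biogenesis genes 0.05 and 23 aminoacyl-tRNA synthetases 0.03.

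Mitochondrial transcripts were also higher as lists, and 1 library weighed most in them. Of 13 proteins that the mitochondrial genome encodes, all parts of the respiratory chain, 7 were tested, and all 7 were above 0 with a median log2 fold change of 0.38. None was called by edgeR, and mt-Nd2, mt-Nd4 and mt-Nd5, subunits of complex I, had an unadjusted p under 0.05 with log2 fold changes of 0.43, 0.32 and 0.38. mt-Nd2 was at 56.5, 50.5, 52.2 and 53.7 CPM in Ypel4+/+ and at 56.4, 97.5, 76.4 and 58.2 CPM in Ypel4-/-. The groups overlapped through Ypel4-/- replicate 1, and replicate 2 was the highest. mt-Co1, the catalytic subunit of cytochrome c oxidase, was at 5681, 4766, 3981 and 3792 CPM in Ypel4+/+ and at 5428, 6341, 4325 and 4065 CPM in Ypel4-/-, a log2 fold change of 0.15. The list's median deviation was 0.61 in Ypel4-/- replicate 2 and between −0.28 and 0.18 in the other 7 libraries, and without that library the median log2 fold change was 0.15. The percent of all counts from mitochondrial genes was 0.823, 0.638, 0.577 and 0.572 in Ypel4+/+ and 0.840, 0.969, 0.672 and 0.607 in Ypel4-/-. Most of these counts come from the list's own genes, so the share is not a separate reading of RNA quality. In Ortho-E the list's median was 0.25, with 7 of 7 above 0.

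Nuclear genes for the mitochondrion were shifted less. The 77 nuclear-encoded subunits of the respiratory chain had a median of 0.07 with 59 above 0, and 73 were bounded within 2-fold. The median was 0.00 without Ypel4-/- replicate 2, 0.02 without Ypel4+/+ replicate 4 and 0.04 without Ypel4-/- replicate 1. Cox5a, of complex IV, had the highest log2 fold change, 0.32 (unadjusted p = 0.084), at 13.8, 23.1, 19.05 and 14.2 CPM in Ypel4+/+ and 22.0, 25.3, 22.0 and 18.7 CPM in Ypel4-/-. Atp5b, the catalytic subunit of ATP synthase, was at −0.04. The 74 proteins of the mitochondrial ribosome had a median of 0.09 with 52 above 0, and 63 were bounded within 2-fold. Without Ypel4-/- replicate 1 their median was 0.01, and without Ypel4-/- replicate 2 it was 0.02. For both lists the difference was larger in replicate numbers 1 and 2, at 0.16 and 0.09 for the respiratory chain and 0.20 and 0.12 for the ribosome, than in numbers 3 and 4, at 0.00 and 0.03 and at 0.01 and 0.02. The 21 citric acid cycle genes had a median of 0.07. In Ortho-E the 3 lists had medians of −0.11, −0.08 and 0.10.

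Interferon-stimulated genes, which make up the antiviral response to type I and II interferons, had the lowest median, −0.27 over 27 tested genes, with 25 below 0 and Ifit2 and Psmb8 above it. Many of them carry an interferon-stimulated response element in the promoter. The sites of 4 members are shown with the motif in capitals, GAAA, any 2 bases and GAAA, from the same RefSeq windows and GRCm38.p6.
Rsad2, chr12:26456555-26456580, + strand, opposite the gene: tgttttctGAAAATGAAAgttggacc
B2m, chr2:122147540-122147565, + strand: aagaacatGAAACTGAAAatgggaaa
Isg15, chr4:156200879-156200904, − strand: tgccgtagGAAAAGGAAAccgaaaca
Ifih1, chr2:62646206-62646231, − strand: agagaatcGAAACAGAAAccgatctg
Searched on both strands, the motif was found in 9 of the 24 promoters matched, 37.5%, against 3.44% of all promoters. It describes the letters and says nothing of binding.

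No interferon-stimulated gene was called by edgeR, with the replicate block or without it. The unadjusted p was under 0.05 for 3 genes without and 8 genes with the block, all lower in Ypel4-/-. These genes are not independent readings either, and the block has the limit given above. Ifit1, which binds foreign RNA, was at 31.7, 16.8, 12.3 and 13.9 CPM in Ypel4+/+ and at 16.02, 11.4, 8.89 and 9.91 CPM in Ypel4-/-, a log2 fold change of −0.66 (unadjusted p = 0.043). The groups overlapped, but the Ypel4-/- library was lower in each of the 4 replicate numbers. Oasl1, an oligoadenylate synthetase-like protein, was at −0.50 and Rtp4, a transmembrane protein induced by interferon, at −1.26, with unadjusted p = 0.045 and 0.033. Rsad2, the most abundant member by CPM, which encodes the antiviral enzyme viperin, was at 2259, 997, 964 and 1083 CPM in Ypel4+/+ and at 971, 1004, 987 and 861 CPM in Ypel4-/-. Only Ypel4+/+ replicate 1 stood apart. Oasl2 likewise was at 77.4 CPM in that library and between 12.2 and 24.9 CPM in the other 7. The list's median deviation was 0.71, −0.07, −0.27 and 0.14 in Ypel4+/+ and 0.15, −0.26, −0.14 and −0.24 in Ypel4-/-. Without Ypel4+/+ replicate 1 the median log2 fold change was −0.07 and 8 genes were above 0. Within replicate numbers the difference was −0.63, −0.01, 0.10 and −0.39. In Ortho-E the median was −0.25, with 3 of 27 above 0.

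**Figure D4:**
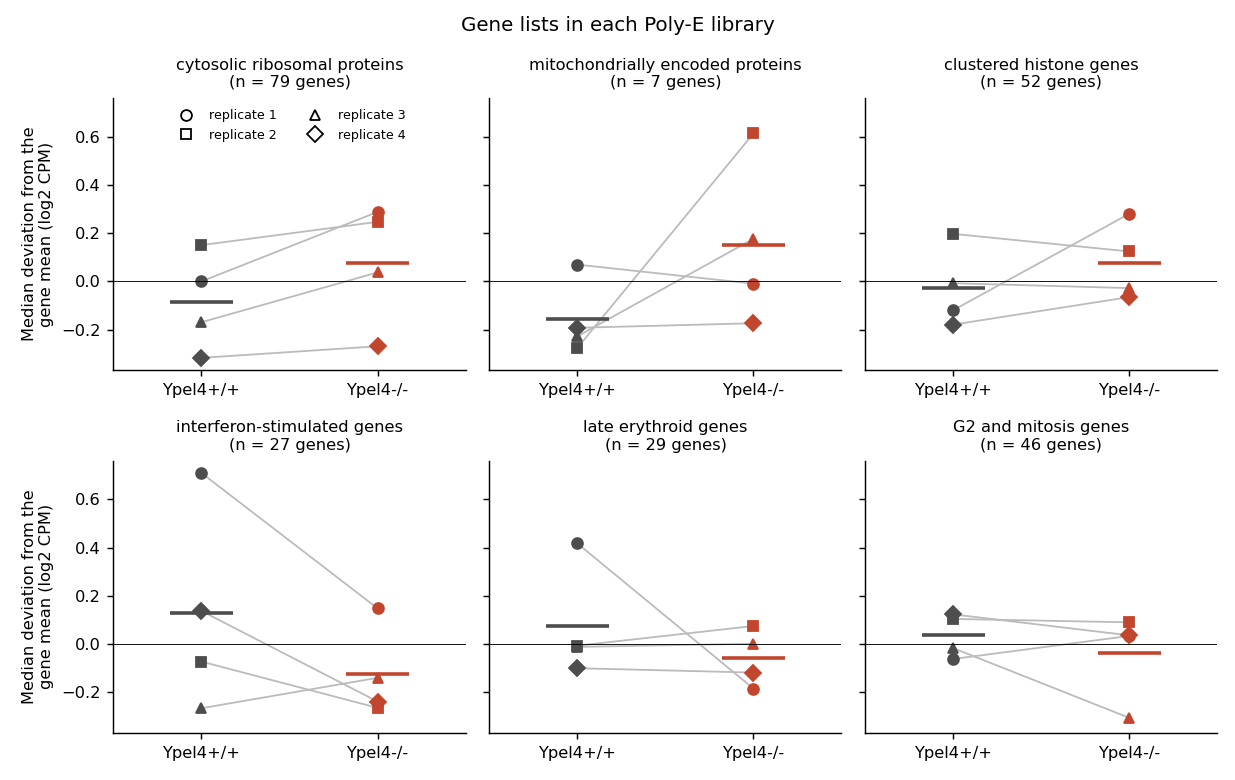
Median deviation from the gene mean (log2 CPM) of 6 gene lists in each Poly-E library, with symbols for the replicate number, grey lines joining libraries of the same number and short bars at the mean of each genotype. Both genotypes overlap in each panel, and Ypel4+/+ replicate 1 is the highest library for the interferon-stimulated genes, at 0.71, and the late erythroid genes, at 0.42.

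Late erythroid genes and the larger class of genes that are higher in Ortho-E were lower in Ypel4-/- Poly-E, and in both this rested on Ypel4+/+ replicate 1. Of 29 late erythroid genes, which take part in remodelling the cell into a reticulocyte, 0 were above 0, with a median of −0.11. None was called by edgeR and none had an unadjusted p under 0.05. Xpo7, a nuclear exporter needed for condensation of the nucleus, was at 4791, 2409, 2005 and 1505 CPM in Ypel4+/+ and at 1527, 2619, 2611 and 1522 CPM in Ypel4-/-, a log2 fold change of −0.37 with an interval from −1.36 to 0.62. Bpgm, which makes the 2,3-bisphosphoglycerate that lowers the oxygen affinity of hemoglobin, was at 1547, 811, 617 and 540 CPM in Ypel4+/+ and at 590, 927, 752 and 507 CPM in Ypel4-/-. Bnip3l, a receptor for the removal of mitochondria, was at 1421, 879, 708 and 708 CPM and at 665, 868, 889 and 662 CPM. In each of the 3 genes Ypel4+/+ replicate 1 was the highest library. Without it the list's median was −0.02 and 12 of 29 genes were above 0. The other 27 genes of the list, all but Xpo7 and Bpgm, were bounded within 2-fold.

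The stage classes were formed from all 16 libraries, with both genotypes weighed alike, and so use the same Poly-E libraries. The 2531 genes at least 2-fold higher in Ortho-E had a median log2 fold change between genotypes of −0.08, with 32.8% above 0, the 3581 genes at least 2-fold lower had a median of 0.02, and the 6283 genes of neither class 0.02. The class higher in Ortho-E deviated by 0.25 in Ypel4+/+ replicate 1, by −0.12 in Ypel4-/- replicate 1 and by no more than 0.05 to either side in the other 6 libraries. Without Ypel4+/+ replicate 1 its median was 0.00. The 133 genes of 1000 CPM or more, of which 8.27% were above 0, had a median of −0.08 with Ypel4+/+ replicate 1 and of −0.04 without it. The 3639 genes of 1 to 10 CPM deviated by −0.045, −0.013, 0.006 and 0.013 in Ypel4+/+ and by 0.098, 0.060, 0.074 and 0.020 in Ypel4-/-. These groups did not overlap, while those of the other abundance classes did. The cause of this was not tested. Of 5 classes of equal size by exon length, the longest had a median of −0.01 and the shortest, from 38 to 1504 bases, 0.04. With genes under 10 CPM left out, the medians ran 0.04, −0.01, −0.02, −0.03 and −0.03 from the shortest to the longest class. The median length of the ribosomal protein genes, 1535 bases, lies just past the end of the shortest class. The 85 genes of that class outside the list with at least 100 CPM had a median of −0.02, and the part of length in the ribosomal protein result was not tested. In these bulk samples, fewer cells of a stage and less RNA per cell cannot be told apart.

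**Figure D5:**
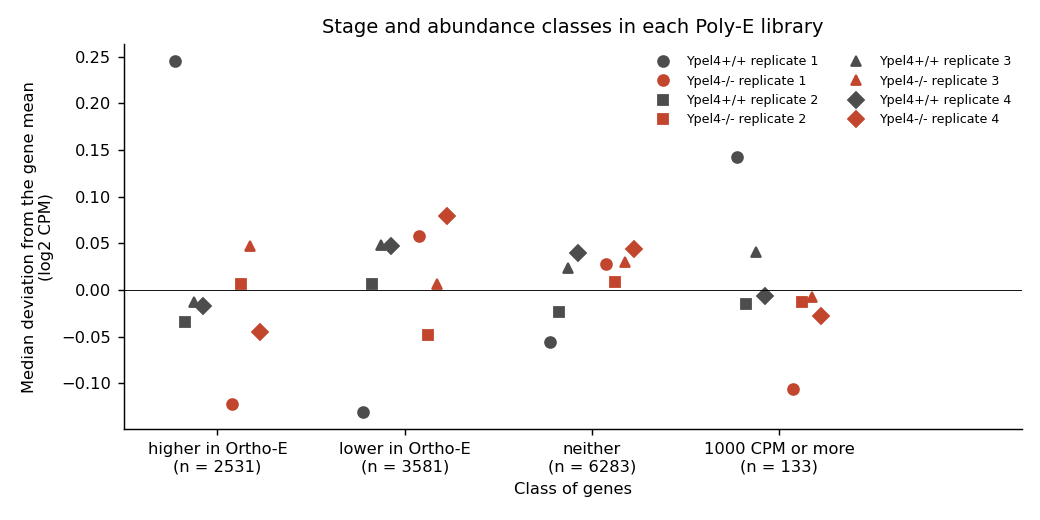
Median deviation from the gene mean (log2 CPM) in each Poly-E library for the genes at least 2-fold higher, at least 2-fold lower or neither in Ortho-E against Poly-E, and for the genes of 1000 CPM or more; grey symbols are Ypel4+/+ and red symbols Ypel4-/- libraries. Ypel4+/+ replicate 1 lies highest, at 0.25, in the first class, and the other Ypel4+/+ libraries lie among the Ypel4-/- libraries.

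Genes of S phase, G2 and mitosis were all held within 2-fold. Of the 48 S phase genes 46 were also held within 1.5-fold, with a median of 0.05 and 41 above 0. Rrm2, which supplies deoxyribonucleotides, was at 2907, 3400, 2876 and 2672 CPM in Ypel4+/+ and at 3040, 3239, 2813 and 2811 CPM in Ypel4-/-, with an interval from 0.86 to 1.17-fold. Rfc3, a clamp loader subunit, had the highest log2 fold change of the list, 0.24 (unadjusted p = 0.091). The 46 G2 and mitosis genes had a median of −0.07, with 6 above 0. Here Ypel4-/- replicate 3 stood apart, at −0.31 against −0.06 to 0.12 in the other 7 libraries, and without it the median was 0.02. Over replicates 1 and 2 alone the median was 0.05 and over replicates 3 and 4 alone −0.18. In Ortho-E the median of the G2 and mitosis list was −0.15, with 8 of 46 above 0. Top2a, the topoisomerase of condensing chromosomes, was at 1848, 2017, 1808 and 2082 CPM in Ypel4+/+ and at 1894, 1904, 1599 and 1899 CPM in Ypel4-/-, and Aurkb, the kinase that corrects spindle attachment, had a log2 fold change of −0.15.

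The 52 clustered histone genes, whose mRNAs mostly lack a poly(A) tail, had a median of 0.11 with 36 above 0, and only 34 were bounded within 2-fold. Without Ypel4+/+ replicate 1 the median was 0.05 with 32 above 0, and without Ypel4-/- replicate 1 it was 0.06. Their differences within replicate numbers were 0.33, −0.05, −0.10 and 0.18. Hist1h2bg went against the list, at 49.3, 26.4, 20.4 and 20.5 CPM in Ypel4+/+ and 22.2, 17.3, 9.32 and 13.1 CPM in Ypel4-/-, a log2 fold change of −0.90 (edgeR adjusted p = 1.00, and 0.0028 with the replicate block). The groups overlapped, and the Ypel4-/- library was lower in each replicate number. Hist1h1a, a linker histone, was at 0.57 (unadjusted p = 0.040). Near-identical copies share reads in this family, so single members are uncertain. In Ortho-E the list's median was 0.38. The 24 genes of cell cycle exit had a median of −0.04 and included Cdkn1b, the inhibitor p27, at −0.24 with 712 CPM in Ypel4+/+ replicate 1 and 356 to 526 CPM in the other 7 libraries.

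Lists for protein quality and stress had medians near 0. The 46 proteasome subunits had a median of 0.00 with 23 above 0 and 40 bounded within 2-fold, and the 31 ubiquitin-conjugating enzymes had a median of −0.04. The 36 heat shock proteins and chaperones had a median of −0.01. Hsp90ab1, the constitutive cytosolic Hsp90, was at 98.6, 84.8, 90.2 and 90.8 CPM in Ypel4+/+ and at 110, 128, 118 and 99.4 CPM in Ypel4-/-, a log2 fold change of 0.32 (unadjusted p = 0.0090). Its groups did not overlap, which was so for 161 of all tested genes, 1.3%, in this direction and for 96, 0.775%, in the other. The 24 genes of ER folding and the unfolded protein response had a median of −0.05. Hspa5, the ER chaperone BiP, was at 535, 394, 400 and 400 CPM in Ypel4+/+ and at 375, 372, 382 and 393 CPM in Ypel4-/-, a log2 fold change of −0.18 (unadjusted p = 0.12) without overlap. Herpud1, of ER-associated degradation, was at −0.35 (unadjusted p = 0.036), with 50.1 and 41.8 CPM in Ypel4+/+ replicates 1 and 2 and 28.0 to 31.5 CPM in the other 6 libraries. The 23 genes of the integrated stress response had a median of −0.05.

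Metabolic and survival lists had medians within 0.1 of 0 as well. Glycolysis, on which the mature red cell depends, had a median of 0.06 over 19 genes, and 11 were bounded within 2-fold. Its Gapdh, which also has many pseudogenes, was at 38.02, 31.6, 25.1 and 20.6 CPM in Ypel4+/+ and 52.6, 38.9, 35.8 and 22.2 CPM in Ypel4-/-, a log2 fold change of 0.38 with a fold between 0.87 and 1.94. The Ypel4-/- library was higher in each number, yet the groups overlapped. The medians were 0.00 for 31 pentose phosphate and antioxidant enzymes, −0.02 for 25 cholesterol synthesis enzymes, 0.00 for 35 genes of autophagy and mitochondrial clearance and 0.03 for 32 lysosome genes. Among 25 genes of EPO receptor signalling, with a median of −0.04, Fam132b, which encodes the iron hormone erythroferrone, was at 0.46 (unadjusted p = 0.053) and Bcl2l1, the survival factor Bcl-xL, at −0.26 (unadjusted p = 0.26). Among 24 survival and death genes, with a median of 0.05, Casp8, the initiator caspase of death receptors, was at 15.2, 13.2, 12.7 and 14.4 CPM in Ypel4+/+ and at 22.0, 17.3, 18.8 and 16.02 CPM in Ypel4-/-, a log2 fold change of 0.41 (unadjusted p = 0.018) without overlap. The 16 p53 targets had a median of −0.07, 36 SR proteins and hnRNPs −0.05, 55 nuclear pore genes −0.03, 28 tubulin and centrosome genes −0.04, 34 actin and enucleation genes 0.00 and 19 early erythroid genes −0.02.

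Farther than 1 Mb from Ypel4, the genes of lowest p beside En2 were Syt14, Aim2, Ttc39aos1 and Slc39a8, and none was called. Syt14, a synaptotagmin, was at 14.3, 7.21, 7.26 and 6.07 CPM in Ypel4+/+ and at 3.59, 3.09, 4.24 and 4.52 CPM in Ypel4-/-, a log2 fold change of −1.07 (unadjusted p = 0.0011). Its groups did not overlap, and Ypel4+/+ replicate 1 was the highest. Aim2, a sensor of cytosolic DNA, was at 29.2, 26.7, 25.2 and 25.4 CPM in Ypel4+/+ and at 29.7, 31.5, 51.2 and 45.8 CPM in Ypel4-/-, a log2 fold change of 0.59 (unadjusted p = 0.0018), with the difference mostly in replicates 3 and 4. Slc39a8, a zinc, manganese and iron transporter on the iron list, was at 6.89, 7.51, 7.46 and 7.42 CPM in Ypel4+/+ and at 9.33, 16.4, 14.2 and 9.68 CPM in Ypel4-/-, a log2 fold change of 0.72 (unadjusted p = 0.0031) without overlap.

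Most markers of other bone marrow cells had counts, at levels that were low in most lists. Their summed levels were 1.74 to 7.41 CPM for 18 neutrophil genes, with Mmp8 and Ly6g at 0, 5.71 to 12.5 CPM for 17 macrophage and monocyte genes, with Marco at 0, 8.42 to 15.1 CPM for 13 T and NK cell genes, with Cd3e at 0, 0.275 to 4.07 CPM for 11 mast cell, basophil and eosinophil genes, with Mcpt4, Tpsb2 and Ms4a2 at 0, and 78.7 to 108.5 CPM for 13 platelet and megakaryocyte genes, with Gp1bb and Selp at 0. B cell markers summed to 67.6 to 87.0 CPM in Ypel4+/+ and to 77.0 to 131 CPM in Ypel4-/- libraries. All 14 were detected, 12 were tested, and 11 were above 0 with a median of 0.36. Ypel4-/- replicates 1 and 2, at 93.5 and 131 CPM, were the highest, and these are also the libraries with the highest deviations of the ribosomal protein genes. The part of B cells in that result was not tested.

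A difference between the populations in the effect of genotype was tested for all 13318 genes that passed the same filter over 16 libraries. edgeR called 0 of them, 0%, and 363, 2.73%, had an unadjusted p under 0.05, with no other tool run on this contrast. The fit took the 16 libraries as independent, with no term for the replicate number. Poly-E and Ortho-E titles of a genotype share these numbers, and whether they share an animal is not stated. Medians in Ortho-E are given here or above for the lists at the ends of the range. The ribosomal protein list had medians of 0.17 and −0.15, the late erythroid list −0.11 and −0.07 and the interferon list −0.27 and −0.25, and the differences between the populations in these list medians were not tested.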

How the data were processed

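RNA was sequenced from sorted Poly-E and Ortho-E, 4 libraries per genotype and population. The authors deposited raw counts per gene, whole numbers of read pairs on exons from featureCounts 1.6.4 in nf-core/rnaseq on GRCm38, unstranded, without multi-mapping reads or reads shared by overlapping genes. The kit does not mark strand, so overlapping and antisense genes cannot be told apart. Sample titles gave the group and replicate number. No source used here ties libraries of a group to separate mice, and p-values measure the spread between these libraries. Poly-E depth was 3235398 to 12451234 counts, and intervals cover no error beyond these libraries.

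Genes with at least 10 counts over the 8 Poly-E libraries were tested in R 4.3.3 with the robust quasi-likelihood test of edgeR 4.0.16 (TMM, Benjamini-Hochberg, threshold 0.05). Bounds (2-fold, 1.5-fold and 0.32 on the log2 scale) came from a pair of one-sided tests, with standard errors no smaller than Poisson. Deviations used log2 CPM with a prior count of 2. Gene lists and classes were described without a test. The members and lists were chosen with earlier results of these data known. Named genes were Ypel4, a fixed set of erythroid genes and Gapdh. Added were the most abundant member of each list and its highest and lowest fold change among members of at least 10 CPM. Members of the 3 highest and 3 lowest lists with an unadjusted p under 0.05 were also named. So were the 10 lowest p outside 1 Mb of Ypel4, with a mean of at least 1 CPM, and genes called under any setting. Ifit2, Psmb8, Cd44 and promoter examples were named after their values were seen. Motifs were searched in RefSeq promoter windows of GRCm38.p6.

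The deviations of libraries with the same number in both genotypes correlated over 5947 genes at 0.24, 0.33, 0.38 and 0.63, all over 0.1. The libraries were taken as paired by number from these data, since no label says what a number marks. Among replicates 1 and 2, Ypel4+/+ and Ypel4-/- libraries of different numbers correlated more, at 0.37 and 0.47. Among replicates 3 and 4 they were at 0.55 and 0.26. Any library of the first set correlated negatively with those of the other genotype in the second. A match by number inside either set was therefore not established, and the pair differences and the block rest on it. Alternatives were DESeq2 1.42.0, voom of limma 3.58.1, DESeq2 size factors, library totals without TMM, filterByExpr, no filter, replicate number as a block, a term for replicates 1 and 2 against 3 and 4, all 16 libraries, globin genes left out, only list members of at least 10 CPM, stage classes at 1.5-fold, and each library left out. Fits of replicates 1 and 2 only and of 3 and 4 only were chosen after seeing the data. The edgeR test without a block and its bounds were also run on simulated counts, drawn independently for each gene and library. DESeq2, voom and the replicate block were not run on them.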

Additional observations from a re-analysis of the deposited data

Results flagged for a closer look

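A check for 1 value far from the other 3 was run over 350 groups of 4 libraries. The groups share the same 8 libraries and include genes picked for their fold change or p. The chance rate of 1 in 20 for independent groups therefore does not apply. The check flagged 17 groups. Of these, 9 were Ypel4+/+ replicate 1 in single genes: Cdkn1b at 712 CPM, Hspa5 at 535, Oasl2 at 77.4, Ppp1r15a at 2542, Rsad2 at 2259, Syt14 at 14.3 and Usp26 at 16.5 CPM were each the highest of the group, and Klf13 at 98.4 and Slc39a8 at 6.89 CPM were the lowest. The same library stood apart in the CTLH ubiquitin ligase list, at a median deviation of 0.16 on the log2 scale. Ypel4-/- replicate 3 was the lowest of its group for the G2 and mitosis genes, at a median deviation of −0.31, and for Top2a, at 1599 CPM. Ypel4+/+ replicate 3 stood apart for Bysl, at 16.1 CPM, and Hist1h4m, at 0.10 CPM, Ypel4+/+ replicate 4 for the globin genes, at a median deviation of −0.12, Ypel4-/- replicate 2 for Dnajb2, at 911 CPM, and Ypel4-/- replicate 4 for RP23-110C17.2, at 2.46 CPM.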

How the results depend on the processing

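The number of genes called was 1 and became 2 with DESeq2, 4 without a filter on low counts, 4 with the replicate number as a block, 3 with a term for replicates 1 and 2 against 3 and 4, 3 on all 16 libraries and 1 to 2 when a library was left out (2 without Ypel4-/- replicate 1). On replicates 1 and 2 only it was 7 and on replicates 3 and 4 only 3. The genes bounded within 0.32 on the log2 scale went from 0 to 2609 with the replicate block, and those with an unadjusted p under 0.05 from 271 to 408 with the block and to 174 with DESeq2. The cause of these differences was not tested. The replicate block lost the call of Ypel4 and added En2, Clp1, Hist1h2bg and Usp26, and it changed no other call. The genes bounded within 2-fold numbered 7078 to 7946 and those within 1.5-fold 4383 to 5785 under the settings that use 7 or more libraries, against 5771 and 3261 on replicates 1 and 2 only. Of the list medians, 12 values moved by more than the spread between replicates, 7 of them under library totals without TMM, which shifts the median of all genes by about 0.05. Under that scaling the medians of the early erythroid genes, 0.04, and the nuclear pore genes, 0.02, lay above 0 instead of below it. Depth limits genes under 1 CPM most.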
